A study of Mus musculus with 11 samples.

Results

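The genes described here are the SR and SR-like splicing factors whose transcripts carry poison exons: Srsf1, Srsf2, Srsf3, Srsf4, Srsf5, Srsf6, Srsf7, Srsf11, Tra2a and Tra2b. The 10 genes were taken from a list of symbols and matched to the gene identifiers of the counts, which held 53801 genes in all. All 10 were found and all 10 passed the filter on low counts in every comparison.

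SR proteins bind short enhancer sequences in exons through RNA recognition motifs and recruit the splicing machinery through a domain rich in arginine and serine. They set their own amount through splicing: a high level of the protein favours inclusion of a poison exon or another splice choice that brings in an early stop codon, and the resulting mRNA is degraded by nonsense-mediated decay (NMD). SMG6 is the endonuclease of this pathway and cuts the RNA near the early stop codon.

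Neural progenitor cells (NPCs) from brains of E13.5 mouse embryos (C57BL/6 mixed with 129SV) were grown with EGF and bFGF, and their total RNA was sequenced in 11 libraries after removal of ribosomal RNA. The Ctr group (n = 3 embryos) was Smg6 Flox/Flox; RosaCreER tg/+ without treatment. The Ctr + 4-OHT group (n = 4 embryos) was Smg6 Flox/Flox; RosaCreER +/+ with 4-OHT (4-hydroxytamoxifen, the ligand that activates CreER). The Smg6-iKO group (n = 4 embryos) was Smg6 Flox/Flox; RosaCreER tg/+ with 4-OHT. The sources differ on the length of the treatment: the labels give 1 µM 4-OHT for 3 days and the study's text 6 days of culture with 4-OHT, and its methods give RNA isolation 6 days after 4-OHT treatment. Every group therefore carried the floxed Smg6 alleles, Smg6-iKO differed from Ctr in 4-OHT as well as in the deletion, and Smg6-iKO differed from Ctr + 4-OHT in the CreER allele as well. The Rosa26 locus drives CreER in all cell types of the culture. The embryos labelled SMH_128, SMH_132 and SMH_133 each gave a Ctr and a Smg6-iKO library, whereas all Ctr + 4-OHT libraries came from different embryos.

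Each of the 10 genes had between 1 and 3 transcripts annotated as NMD targets in GENCODE M21 on GRCm38, an annotation feature of 4561 of the 53801 genes. In 6 of them the early stop codon lies in an exon that no protein-coding transcript of the gene shares. The start of that exon up to the stop codon is shown for these 6 genes, because this stretch is what turns the mRNA into an NMD substrate. Bases run 5′ to 3′ on the strand of the gene, and the stop codon is in capitals. The positions are chr17:29039454-29039487 (plus strand) for Srsf3, chr4:131884276-131884390 (plus) for Srsf4, chr17:80205054-80205081 (minus) for Srsf7, chr3:158024209-158024231 (minus) for Srsf11, chr6:49252965-49253108 (minus) for Tra2a and chr16:22259181-22259261 (minus) for Tra2b.
Srsf3: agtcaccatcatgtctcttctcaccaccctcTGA
Srsf4: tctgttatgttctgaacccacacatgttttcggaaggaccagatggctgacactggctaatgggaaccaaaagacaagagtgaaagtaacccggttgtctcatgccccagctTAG
Srsf7: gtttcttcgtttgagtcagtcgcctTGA
Srsf11: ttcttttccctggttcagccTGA
Tra2a: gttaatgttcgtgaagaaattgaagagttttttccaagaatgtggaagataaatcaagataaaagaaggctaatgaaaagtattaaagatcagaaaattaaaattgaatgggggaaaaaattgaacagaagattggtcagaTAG
Tra2b: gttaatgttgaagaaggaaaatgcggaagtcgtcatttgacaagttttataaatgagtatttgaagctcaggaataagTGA

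The stop codon ended 23 bases into the exon in Srsf11, 28 in Srsf7, 34 in Srsf3, 81 in Tra2b, 115 in Srsf4 and 144 in Tra2a. Srsf11 has another exon of this kind (chr3:158023243-158023359), not printed here, in which the stop codon ended 50 bases in. The poison exons of the paralogs Tra2a and Tra2b began with the same 9 bases and then differed. No other pair of the 6 shared more than its first 3 bases. In Srsf1, Srsf2, Srsf5 and Srsf6 the stop codon of the NMD transcripts lies in an exon that overlaps exons of protein-coding transcripts. In Srsf5 that exon is 266 bases long, of which 71 are in protein-coding transcripts, and in Srsf6 it is 268 bases long, of which 165 are. In Srsf2 and Srsf6 the same stop codon is also annotated in a transcript called protein-coding, so the annotation alone does not show it to be early. In Srsf2-202, 217 bases lie between this stop codon and the last exon junction. From the stop codon to the last exon junction, the NMD transcripts of the 10 genes held between 67 and 1015 bases.

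**Figure D1:**
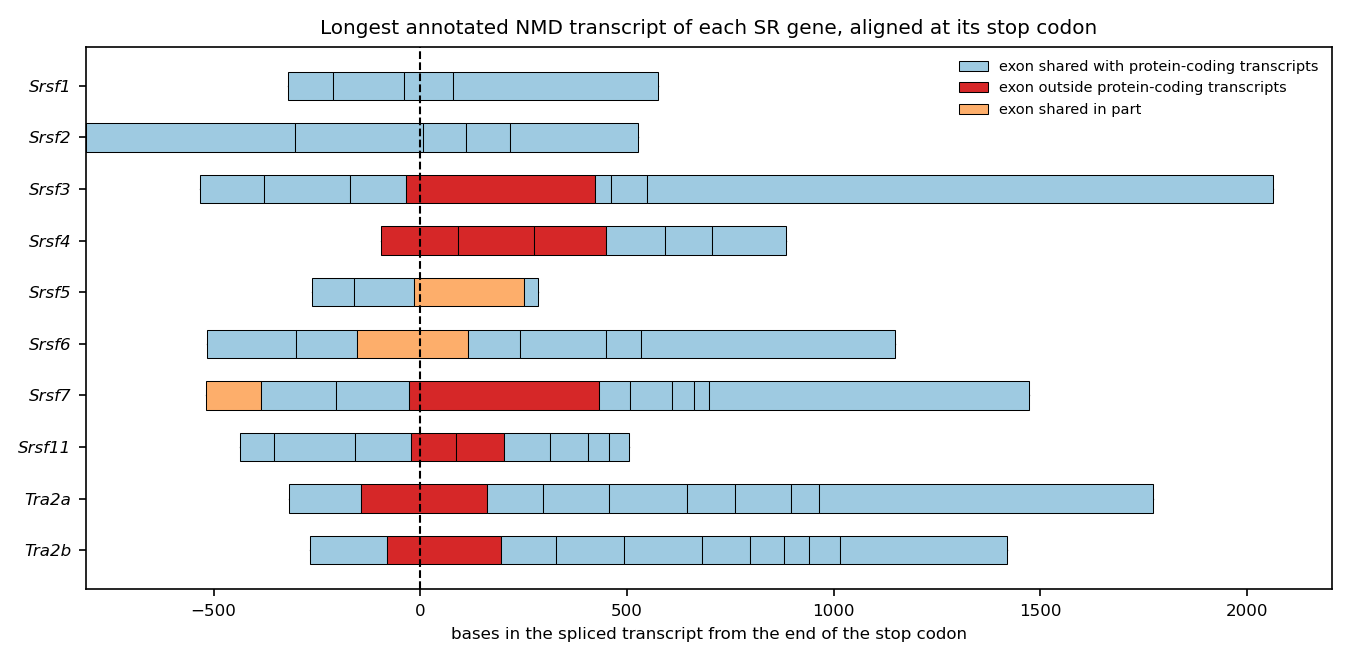
The longest annotated NMD transcript of each of the 10 SR genes, drawn to scale in bases of the spliced transcript and aligned at the end of its stop codon (dashed line), with each box 1 exon. Red exons lie outside protein-coding transcripts, orange exons are shared in part and blue exons are shared. For Srsf4 this transcript is not the one whose sequence is given, and its stop codon lies in its first exon.

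The deposited value is a single count per gene, so reads from the poison exon and from the other exons of a gene were added together and inclusion of the poison exon was not measured. Bases of NMD transcripts that no protein-coding transcript shares made up 16.5% of the counted exon length of Srsf4, 10.3% of Srsf3, 9.49% of Tra2b, 4.89% of Srsf5, 4.41% of Tra2a, 2.68% of Srsf11 and 2.14% of Srsf6. Transcripts of other types, such as those with a retained intron, can share these bases. Srsf1 and Srsf2 had no such bases. The Srsf7 poison exon, 460 bases long, had 0 of its bases among the exons counted for Srsf7 (Ensembl 92), so reads from it did not enter the Srsf7 count. In these bulk libraries, fewer cells of a type and less RNA per cell cannot be told apart.

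The libraries held between 26418249 and 33756875 counted reads, and between 1970 and 15483 of them fell on each of the 10 genes. The libraries of Smg6-iKO stood apart from the controls in the NMD targets Gas5 and Ifrd1. Gas5, a host gene of small nucleolar RNAs whose spliced transcript is a textbook NMD target, was at 713 ± 49.4 CPM (counts scaled to a common library total, mean ± SD, n = 4) in Smg6-iKO, 298 ± 39.4 (n = 4) in Ctr + 4-OHT and 333 ± 9.71 (n = 3) in Ctr. Ifrd1, whose upstream reading frame makes it an NMD target, was at 82.7 ± 4.00, 53.1 ± 2.29 and 49.4 ± 1.87 CPM in the same order. Smg6 itself, summed over all of its exons, was at 66.0 ± 4.56 CPM in Smg6-iKO, 69.3 ± 3.22 in Ctr + 4-OHT and 74.3 ± 4.95 in Ctr. Its groups overlapped, and neither the difference from Ctr + 4-OHT (log2 fold change -0.06, adjusted p = 0.703) nor that from Ctr (-0.17, adjusted p = 0.148) passed edgeR's test, while with the embryo as a block the latter did (-0.15, adjusted p = 0.0430). A count over the whole gene does not isolate the deleted part, so it checks the labels only weakly. Esr1, to whose count the ligand-binding part of the CreER transgene can add, was at most 0.282 CPM in Ctr + 4-OHT and at least 3.88 CPM in every library of the other 2 groups, which follows the genotypes on the labels.

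Markers of neural progenitors were present in all libraries, with a summed level of the 8 markers between 4305 and 5436 CPM. Against Ctr, 5 of the 8 were lower in Smg6-iKO, with log2 fold changes of -1.28 for Hes5, -0.47 for Sox2, -0.45 for Pax6, -0.31 for Sox1 and -0.29 for Fabp7, and 1 of 4 astrocyte markers, Gfap, was higher (1.33), where 9.25% of all genes passed that test in either direction. A single edgeR fit of all 11 libraries called 2 of the 8 and 0 of the 4 astrocyte markers (4.39% of all genes). With the embryo as a block, the 5 progenitor markers named above were again lower, with adjusted p of at most 0.00261 (21.4% of all genes passed). None of the 4 oligodendrocyte lineage markers passed edgeR's test of the 2 groups, with 1 at an unadjusted p under 0.05 (26.9% of all genes), and with the embryo as a block 2 of them and 2 of the 4 astrocyte markers were higher (21.4% of all genes). None of the 5 neuron markers passed that test with edgeR's quasi-likelihood test, although 3 had an unadjusted p under 0.05 (26.9% of all genes), and 3 passed with DESeq2 (16.2% of all genes) and with the embryo as a block, which also called 1 of the 4 endothelial and mesenchymal markers tested higher. Against Ctr + 4-OHT, 0 of these markers passed with edgeR on the 2 groups compared or with limma-voom, 1 progenitor marker passed with DESeq2 (6.16% of all genes) and with the single edgeR fit of all 11 libraries (2.67%), and 2 of the 8 progenitor markers had an unadjusted p under 0.05 in edgeR (16.7%). In Ctr + 4-OHT against Ctr, the markers named above were at log2 fold changes of -0.59 for Hes5, -0.28 for Pax6, -0.25 for Sox2, -0.25 for Sox1, -0.11 for Fabp7 and 0.72 for Gfap. None of these passed edgeR's test, with an adjusted p of 0.401 for Hes5 and higher values for the others. The 4 microglia markers summed to at most 1.26 CPM and the 5 erythroid markers to at most 0.128 CPM in any library. The summed level of 5 endothelial and mesenchymal markers ranged from 67.2 to 416 CPM within Smg6-iKO alone. The part of these cell type differences in the values of the SR genes was not tested.

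SR genes were among the more strongly expressed genes of these NPCs. Divided by the counted exon length, so that genes can be compared, the level was highest in Srsf2 (81.6 ± 5.78 CPM per kb, mean ± SD over 11 libraries) and Srsf1 (81.5 ± 5.02), and these neighbours did not differ beyond their spread, since Srsf2 was above Srsf1 in 5 of 11 libraries. Srsf5 (70.9 ± 3.38) and Srsf7 (67.1 ± 3.88) followed, with Srsf5 above Srsf7 in 9 libraries, although the mean of the 3 Ctr libraries was higher for Srsf7. Srsf6 (46.7 ± 3.38) and Srsf3 (45.3 ± 2.55) formed the next pair and overlapped. Their order turned with the group, since Srsf6 was above Srsf3 in all 8 libraries with 4-OHT and below it in all 3 Ctr libraries. Tra2a (26.9 ± 2.43), Srsf4 (26.4 ± 2.14) and Srsf11 (24.1 ± 1.23) overlapped one another, and Tra2b was lowest in all 11 libraries (14.5 ± 0.760). Srsf2 lay above 97.7% of the 14104 protein-coding genes kept over the 11 libraries, and Tra2b above 73.7%. These levels rest on the Ensembl 92 exons, so unspliced and NMD exons of a gene enter its length. Of the counted bases, 1803 of 6945 lay in protein-coding transcripts for Tra2a and 5558 of 5710 for Srsf1. The order and the shares of genes below therefore hold for this length only, and were not computed with another.

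The question put to the 3 groups was whether the RNA level of these genes changed when Smg6 was deleted. Against Ctr + 4-OHT, 0 of 10 genes passed edgeR's quasi-likelihood test of the 2 groups compared (adjusted p under 0.05), where 206 of 17558 genes tested did (1.17%). At an unadjusted p under 0.05 there were 2 of 10, Srsf1 and Srsf3, where 16.7% of all genes reached that level. DESeq2's Wald test called 1 of 10, Srsf1, where it called 6.16% of all genes, a single edgeR fit of all 11 libraries called Srsf1 as well (2.67%), and limma-voom called 0 (1.11%). Against Ctr, 1 of 10 passed edgeR's test, Srsf6, which was higher in Smg6-iKO, where 1663 of 17974 genes tested did (9.25%), 767 of them higher (4.27%) and 896 lower. DESeq2 called 2 (16.2% of all genes), Srsf6 and Srsf1, while limma-voom (8.97%) and the single fit of all libraries (4.39%) called Srsf6. Upper-quartile normalization turned that split to 1089 higher and 694 lower. With the embryo as a block, 3854 genes passed (21.4%) and Srsf6 was again the single SR gene among them. Between the 2 control groups, 0 of 10 genes passed edgeR's test where 39 of 17665 did (0.221%), 1 of 10 had an unadjusted p under 0.05 where 8.28% of all genes did, and DESeq2 (0.83% of all genes), limma-voom (0.198%) and the single fit (0.331%) called 0. Smg6-iKO entered both of its comparisons with the same 4 libraries, and each control group likewise entered 2 of the 3 comparisons, so the 3 sets of values are not independent.

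**Figure D2:**
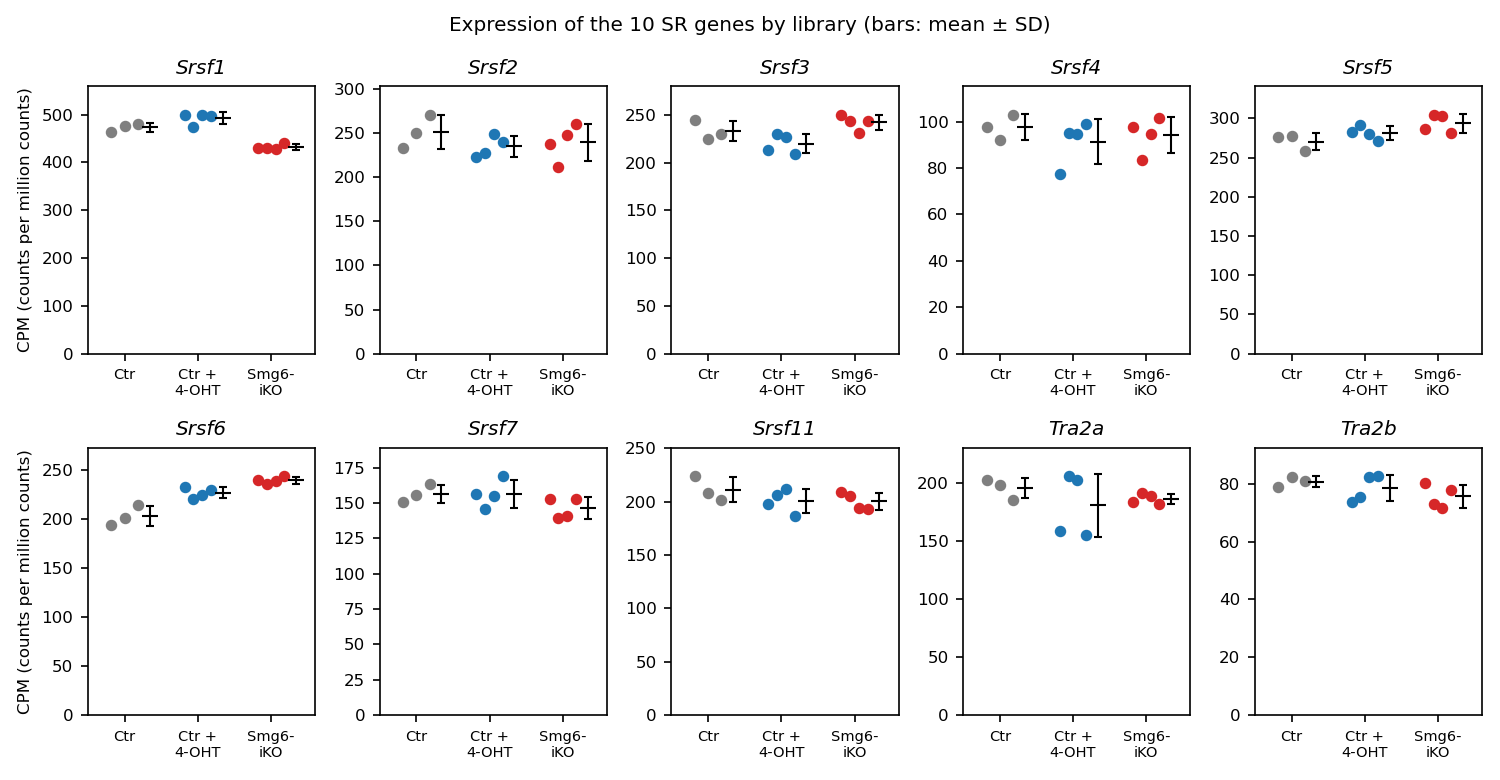
Expression of the 10 SR genes in each library, in CPM after TMM normalization, with every axis starting at 0. Each point is 1 library (Ctr grey, n = 3, Ctr + 4-OHT blue, n = 4, Smg6-iKO red, n = 4) and the black mark beside each group is its mean ± SD. The Smg6-iKO points of Srsf1 lie below, and those of Srsf6 above, all 7 control points.

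Srsf1 (ENSMUSG00000018379, chr11:88047373-88053755), the prototype of the family, acts in splicing and also in mRNA export and translation. Its 3 Ctr libraries were at 463, 477 and 480 CPM, its 4 Ctr + 4-OHT libraries at 499, 474, 500.2 and 498 CPM, and its 4 Smg6-iKO libraries at 430.0, 431, 429 and 441 CPM. All Smg6-iKO libraries lay below all control libraries, and the 2 control groups overlapped. The difference was -11.5% (log2 fold change -0.18, SE 0.05) against Ctr + 4-OHT, with an adjusted p of 0.116 in edgeR's quasi-likelihood test, and -8.60% (log2 fold change -0.13, SE 0.05, adjusted p = 0.113) against Ctr. Neither passed in the edgeR fit of the 2 groups. With DESeq2's Wald test both did, at adjusted p = 0.000687 and 0.0281, and with all 11 libraries in a single edgeR fit the difference from Ctr + 4-OHT did (log2 fold change -0.19, adjusted p = 0.0490). The difference from Ctr also passed in edgeR with the embryo as a block and a correction for exon length together (log2 fold change -0.15, adjusted p = 0.0293), where 20.7% of all genes passed. The exact two-sided permutation test gave p = 0.0286 in each comparison with Smg6-iKO, the smallest value these group sizes allow. Against Ctr this test took no account of the embryos shared by the 2 groups.

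Srsf2 (ENSMUSG00000034120, chr11:116849901-116853094) encodes a nuclear SR protein that binds exonic enhancers of many alternative exons. It was at 233, 250.2 and 271 CPM in Ctr, at 224, 227, 249.9 and 240.2 CPM in Ctr + 4-OHT and at 238, 212, 248 and 261 CPM in Smg6-iKO. The 3 groups overlapped throughout, with as much spread among embryos as between conditions. For Srsf2 the log2 fold change was 0.04 (SE 0.07, adjusted p = 0.836) against Ctr + 4-OHT and -0.07 (SE 0.08, adjusted p = 0.617) against Ctr.

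Srsf3 and Srsf7 encode closely related small SR proteins, both of which also bind the mRNA export receptor and affect the choice of polyadenylation site. Srsf3 (ENSMUSG00000071172, chr17:29032673-29043366) was at 244, 224 and 229 CPM in Ctr, at 213, 229.6, 227 and 209 CPM in Ctr + 4-OHT and at 250.2, 244, 231 and 243 CPM in Smg6-iKO. The Smg6-iKO libraries were all above the Ctr + 4-OHT libraries but overlapped Ctr, where the Ctr library of embryo SMH_128 was as high as the Smg6-iKO library of the same embryo. The log2 fold change was 0.15 (SE 0.05, adjusted p = 0.188) against Ctr + 4-OHT and 0.06 (SE 0.05, adjusted p = 0.533) against Ctr, and no alternative gave either an adjusted p under 0.05. The exact two-sided permutation test gave p = 0.0286 for Srsf3 against Ctr + 4-OHT, the smallest these group sizes allow. Its poison exon, printed above, belongs to the counted exons.

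Srsf7 (ENSMUSG00000024097, chr17:80200089-80207305) was at 151, 155 and 163 CPM in Ctr, at 157, 145, 155 and 169 CPM in Ctr + 4-OHT and at 153, 139, 141 and 153 CPM in Smg6-iKO. The groups overlapped, with 2 Smg6-iKO libraries below every control. Its log2 fold change was -0.08 (SE 0.06, adjusted p = 0.527) against Ctr + 4-OHT and -0.09 (SE 0.06, adjusted p = 0.324) against Ctr. Of the GENCODE M21 exon bases of Srsf7, 1271 were not counted, and 462 of these are in its NMD transcript. These values are therefore those of the counted Srsf7 exons, without the poison exon.

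Srsf4, Srsf5 and Srsf6 encode related SR proteins that, like SRSF1, have an additional, atypical RNA recognition motif. Srsf4 (ENSMUSG00000028911, chr4:131873617-131901706) was the least expressed of them, at 97.7, 91.99 and 103 CPM in Ctr, 77.3, 94.9, 94.4 and 98.8 CPM in Ctr + 4-OHT and 97.5, 83.4, 94.8 and 102 CPM in Smg6-iKO. The groups overlapped, with a low library in each treated group. The log2 fold change was 0.06 (SE 0.09, adjusted p = 0.797) against Ctr + 4-OHT and -0.05 (SE 0.07, adjusted p = 0.720) against Ctr, and it was -0.02 in the first without Ctr + 4-OHT library SMH_125 and 0.01 in the second without Smg6-iKO library SMH_128. Srsf4 had the largest share of NMD-only bases in its counted length.

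Srsf5 (ENSMUSG00000021134, chr12:80945504-80950507) was at 277, 277 and 258 CPM in Ctr, at 283, 292, 280.1 and 271 CPM in Ctr + 4-OHT and at 286, 305, 303 and 281 CPM in Smg6-iKO. All Smg6-iKO libraries lay above all Ctr libraries and overlapped Ctr + 4-OHT. The log2 fold change was 0.12 (SE 0.06, adjusted p = 0.200) against Ctr, with an exact permutation p of 0.0571, and 0.07 (SE 0.05, adjusted p = 0.530) against Ctr + 4-OHT.

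Srsf6 (ENSMUSG00000016921, chr2:162931528-162937121) rose against Ctr and was the single SR gene to pass edgeR's test of the 2 groups compared in any of the 3 comparisons. It was at 193, 201 and 214 CPM in Ctr, at 233, 220.2, 224 and 229.7 CPM in Ctr + 4-OHT and at 240.2, 236, 238 and 244 CPM in Smg6-iKO. The 3 groups did not overlap, in the order Ctr, Ctr + 4-OHT, Smg6-iKO. The share of all genes that separate in this order was not computed. Against Ctr the rise was 18.0% (95% interval 8.76% to 28.0%, log2 fold change 0.24, SE 0.05, adjusted p = 0.0223). Against Ctr + 4-OHT the level was 6.44% higher with an interval of -0.777% to 14.2% (log2 fold change 0.09, SE 0.05, adjusted p = 0.355), and Ctr + 4-OHT was 11.7% above Ctr (log2 fold change 0.16, SE 0.06, unadjusted p = 0.0236, adjusted p = 0.510). The call against Ctr was lost without Ctr library SMH_128 (adjusted p = 0.0920), without Ctr library SMH_132 (0.0831), without Smg6-iKO library SMH_127 (0.0515) or without Smg6-iKO library SMH_133 (0.0708), while the log2 fold change stayed between 0.21 and 0.27. Since Ctr + 4-OHT differed from Ctr in 4-OHT and in the CreER allele, these cannot be told apart for Srsf6.

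Srsf11, Tra2a and Tra2b are SR-like proteins. Srsf11 (ENSMUSG00000055436, chr3:158010473-158036639), which promotes inclusion of short neuronal exons, was at 224, 208 and 201 CPM in Ctr, at 198, 206, 212 and 186 CPM in Ctr + 4-OHT and at 209, 205, 194 and 193 CPM in Smg6-iKO. The groups overlapped, and the log2 fold change was 0.01 (SE 0.06, adjusted p = 0.953) against Ctr + 4-OHT and -0.08 (SE 0.06, adjusted p = 0.439) against Ctr.

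Tra2a and Tra2b are the mammalian homologs of the fly Transformer-2 and bind GAA-rich exonic enhancers. Tra2a (ENSMUSG00000029817, chr6:49243924-49264033) was at 202, 199 and 186 CPM in Ctr, at 158, 206, 203 and 156 CPM in Ctr + 4-OHT and at 184, 191, 189 and 182 CPM in Smg6-iKO. The Ctr + 4-OHT libraries of embryos SMH_125 and SMH_131 lay below all others, so this group had the widest spread of the 30 gene-by-group values (coefficient of variation 15.2%, against 2.40% in Smg6-iKO). The log2 fold change was 0.06 (SE 0.10, adjusted p = 0.821) against Ctr + 4-OHT and -0.07 (SE 0.05, adjusted p = 0.441) against Ctr. Without Ctr + 4-OHT library SMH_125 or SMH_131 the first was -0.01 in either case.

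Tra2b (ENSMUSG00000022858, chr16:22244549-22266005) was at 78.8, 82.3 and 81.1 CPM in Ctr, at 73.6, 75.4, 82.3 and 82.6 CPM in Ctr + 4-OHT and at 80.2, 72.9, 71.5 and 77.8 CPM in Smg6-iKO. The groups overlapped, and 3 of the 4 Smg6-iKO libraries lay below every Ctr library. For Tra2b the log2 fold change was -0.04 (SE 0.06, adjusted p = 0.786) against Ctr + 4-OHT and -0.09 (SE 0.06, adjusted p = 0.326) against Ctr. With the embryo as a block and a correction for exon length together, the second passed (log2 fold change -0.14, adjusted p = 0.0482), as did that of Srsf1, where 20.7% of all genes passed.

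**Figure D3:**
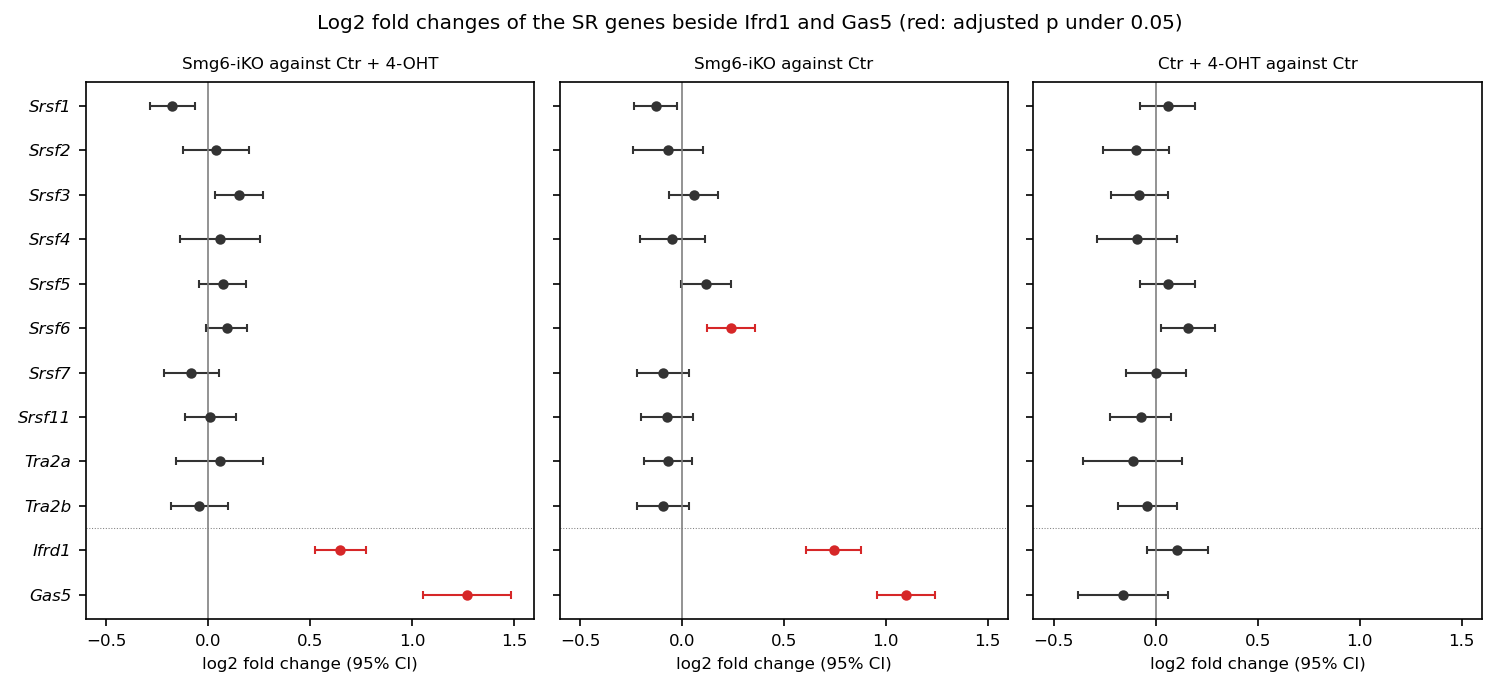
Log2 fold changes of the 10 SR genes, with Ifrd1 and Gas5 under the dotted line, in the 3 comparisons. Points are edgeR estimates, bars are 95% intervals, and red marks an adjusted p under 0.05. The SR genes lie between -0.18 and 0.24, while Gas5 is at 1.27 and 1.10 in the comparisons with Smg6-iKO.

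As a group the 10 genes stayed close to 0. Against Ctr + 4-OHT, 7 had a positive and 3 a negative log2 fold change, with a median of 0.05 beside 0.012 over all genes tested and a range from -0.18 to 0.15. Against Ctr, 3 were positive and 7 negative, with a median of -0.07 beside 0.0055 over all genes and a range from -0.13 to 0.24. In Ctr + 4-OHT against Ctr, 4 were positive and 6 negative, with a median of -0.06 beside 0.0045 and a range from -0.11 to 0.16. These medians moved with single libraries. Leaving out 1 library at a time, the median against Ctr + 4-OHT lay between -0.0071, without Ctr + 4-OHT library SMH_125, and 0.06. The median against Ctr lay between -0.09 and -0.04 and was -0.036 with upper-quartile normalization, and that between the controls lay between -0.08 and -0.010, the latter again without SMH_125. The median absolute log2 fold change of the 10 genes was 0.06 against Ctr + 4-OHT (0.12 over all genes), 0.08 against Ctr (0.15) and 0.08 between the controls (0.10). Over protein-coding genes it was 0.108 against Ctr + 4-OHT and 0.134 against Ctr, and over genes with an annotated NMD transcript 0.102 and 0.119. These sets include genes with far lower counts, and no set of like expression was compared. The CPM of the 10 genes summed to 2151 ± 26.5 in Smg6-iKO, 2164 ± 48.0 in Ctr + 4-OHT and 2173 ± 12.4 in Ctr, and the 3 groups overlapped.

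**Figure D4:**
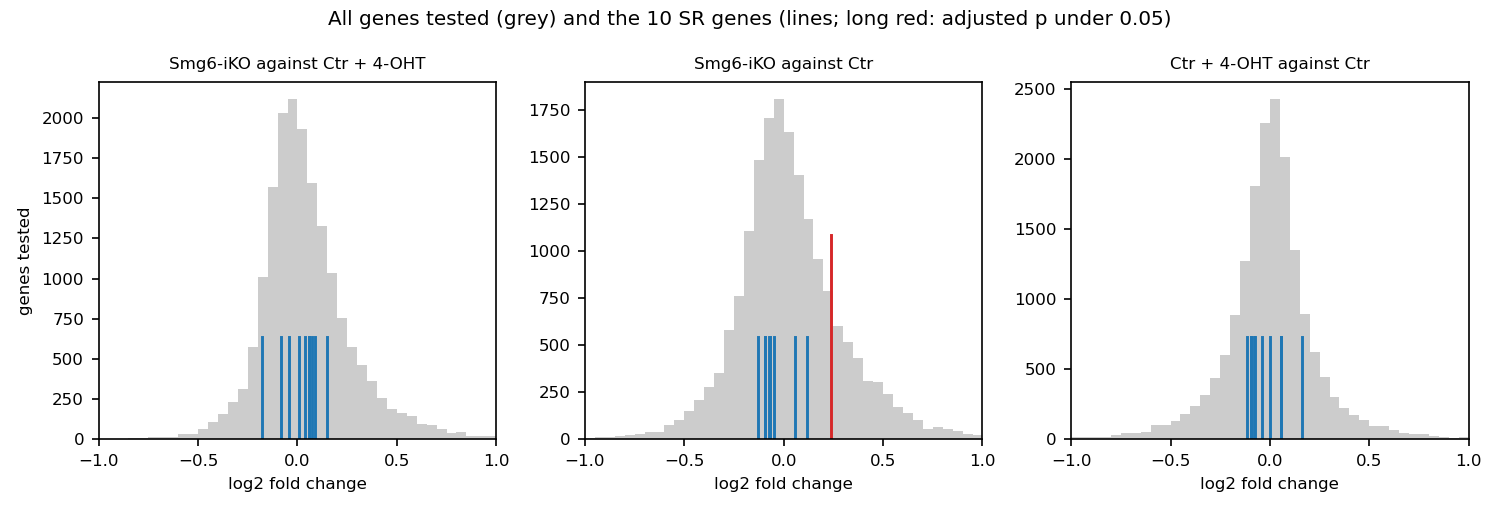
Histograms of the log2 fold changes of all genes tested in each comparison (grey, bins of 0.05, shown from -1 to 1), with each of the 10 SR genes as a vertical line. The short blue lines did not pass edgeR's test and the long red line is Srsf6 against Ctr. The SR genes lie between -0.18 (Srsf1 against Ctr + 4-OHT) and 0.24 (Srsf6 against Ctr).

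The intervals bound the size of change that these libraries allow. The 95% intervals of the 10 genes against Ctr + 4-OHT together reached from 18.0% lower to 20.4% higher, and those against Ctr from 15.3% lower to 28.0% higher. A change of the size of Gas5, which was 141% higher than in Ctr + 4-OHT (95% interval 108% to 180%), or of Ifrd1, 56.8% higher (43.6% to 71.2%), lay outside the interval of every one of the 10 genes. A change in a poison-exon transcript that makes up a minor part of a gene's RNA cannot be read from a count over the whole gene.

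Counting genes by overlap of their libraries, 3 of 10 had Smg6-iKO libraries all on a single side of Ctr + 4-OHT (Srsf3 and Srsf6 above, Srsf1 below), where 5.03% of all genes lay above and 5.99% below. Against Ctr there were likewise 3 of 10 (Srsf5 and Srsf6 above, Srsf1 below), where 11.5% of all genes lay above and 11.9% below. Against all 7 control libraries at once there were 2, Srsf6 above and Srsf1 below, where 2.9% lay above and 3.5% below. In the comparison of the controls there was 1, Srsf6, higher in Ctr + 4-OHT, where 3.8% of all genes were higher without overlap.

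Within the 3 embryos that gave both a Ctr and a Smg6-iKO library, 8 of the 10 genes differed in a single direction in all 3, as did 51.5% of all genes kept (25.7% higher and 25.7% lower). Srsf6 was higher in Smg6-iKO in each embryo, by 0.19 to 0.28 on the log2 scale, and Srsf5 by 0.12 to 0.14. Srsf1, Srsf2, Srsf7, Srsf11, Tra2a and Tra2b were lower in each, Srsf1 by log2 differences from -0.15 to -0.10 and Tra2b from -0.20 to -0.06. Srsf3 and Srsf4 differed in sign among embryos. With the embryo as a block, none passed besides Srsf6 (log2 fold change 0.24, adjusted p = 0.00195), with Srsf5 at an adjusted p of 0.0589 and Srsf1 at 0.0670.

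**Figure D5:**
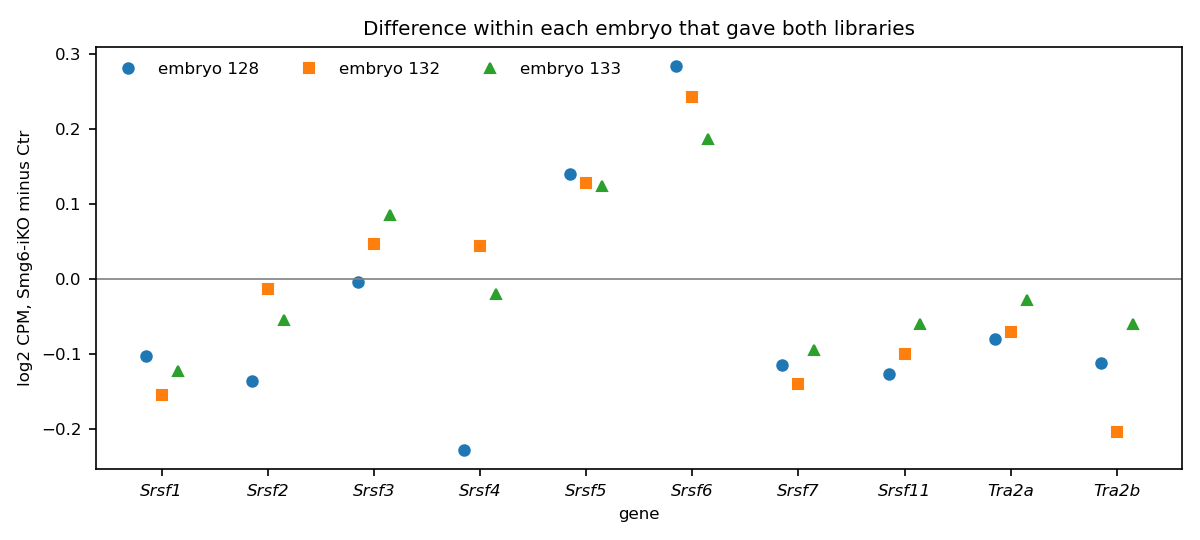
Difference in log2 CPM between the Smg6-iKO and the Ctr library of the same embryo, for the 10 SR genes on the x axis. Each marker shape is 1 of the 3 embryos. Srsf5 and Srsf6 lie above 0 in all 3 embryos, Srsf3 and Srsf4 on both sides, and the other 6 genes below.

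Across the 11 libraries some pairs of the 10 genes varied together and others in opposite directions. Pearson's r of log2 CPM between pairs of the genes ranged from -0.889 (Srsf5 and Srsf7) to 0.765 (Srsf7 and Tra2b), with a median of -0.03 over the 45 pairs. Of the 45 pairs, 22 had a positive value. The next lowest values were those of Srsf1 and Srsf3 (-0.803) and Srsf5 and Tra2b (-0.774), and the next highest those of Srsf2 and Srsf4 (0.727), Srsf11 and Tra2a (0.720) and Srsf1 and Srsf7 (0.690). The libraries share groups and embryos, so these values describe the 11 libraries and were not tested. The genes whose log2 CPM was most like the mean of the 10 standardised profiles were Gmpr2 (r = 0.885 over 11 libraries), Sufu (0.870), Rps16 (0.868), Ddx19a (0.868) and Rcor1 (0.867).

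Other genes of the same machinery were described beside them. Of 24 other SR and SR-related proteins, among them Srsf9, Srsf10 and Srsf12, 0 passed edgeR's test, DESeq2's or limma-voom in any of the 3 comparisons, with 1, 2 and 0 in edgeR at an unadjusted p under 0.05 (16.7%, 26.9% and 8.28% of all genes) and medians of -0.02, -0.02 and -0.01 on the log2 scale against Ctr + 4-OHT, against Ctr and between the controls. Srsf9 was at -0.12 against Ctr + 4-OHT (adjusted p = 0.335), and Srsf10, which represses splicing when dephosphorylated, was at 0.06 (adjusted p = 0.562). Of 11 genes for kinases that phosphorylate SR proteins and for their import receptor, 0 passed edgeR's test, with 1, 3 and 1 at an unadjusted p under 0.05, beside the same shares of all genes, and medians of 0.02, -0.04 and 0.0017. DESeq2 and limma-voom each called 1 of the 11, Srpk2, lower against Ctr, where they called 16.2% and 8.97% of all genes. The import receptor gene Tnpo3 was at -0.06 (adjusted p = 0.544) and -0.04 (adjusted p = 0.678) in the comparisons with Smg6-iKO. With the embryo as a block, 2 of the 24 and 3 of the 11 passed against Ctr, named here after their values were seen: Luc7l (log2 fold change 0.14, adjusted p = 0.0430) was higher, and Srrm1 (-0.15, adjusted p = 0.0443), Clk1 (-0.15, adjusted p = 0.0349), Srpk2 (-0.21, adjusted p = 0.00445) and Dyrk1a (-0.18, adjusted p = 0.0113) were lower. The background in that fit was 21.4%.

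The annotation of an NMD transcript was also set against the calls over all genes. Of 3846 protein-coding genes with an annotated NMD transcript, 58 passed against Ctr + 4-OHT (1.51%), 49 of them higher and 9 lower. Of 10081 protein-coding genes without such a transcript, 121 passed (1.20%), 60 higher and 61 lower. Against Ctr the shares were 10.9% with (229 higher and 191 lower) and 11.1% without (458 higher and 678 lower). The balance of directions differed by method: against Ctr + 4-OHT, DESeq2 called 146 higher and 91 lower with such a transcript and 202 higher and 390 lower without, and the single fit of all libraries called 96 and 40 with and 117 and 196 without. None of the 10 SR genes was among the 58, and Srsf6 was 1 of the 229.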

How the data were processed

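RNA-seq of 11 NPC libraries was used. Per the study's methods, 50 bp single reads from a stranded total RNA kit were mapped to GRCm38 with STAR 2.5.4b, and featureCounts 1.5.0 counted uniquely mapped reads in stranded mode on Ensembl release 92 genes. The authors deposited these counts without normalization, 1 table per library. Of 53801 identifiers, 53706 took a symbol from GENCODE M21 (GRCm38), which also gave NMD transcripts, exon positions and, through its transcript sequences, the bases printed.

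Counts were analysed in R 4.3.3 with edgeR 4.0.16: filterByExpr, TMM, the quasi-likelihood test on the 2 groups compared, and Benjamini-Hochberg adjustment over all genes tested, calling genes at an adjusted p under 0.05. CPM used TMM factors over 11 libraries (18123 genes, prior count 2 on the log2 scale). SE is that of the log2 fold change, and intervals are at 95%. Single genes were also compared with an exact two-sided permutation test of mean log2 CPM, which did not use the pairing of embryos. Named genes were the 10 SR genes, called genes of the SR-related and kinase lists, Gas5, Ifrd1, Smg6, Esr1, and the 5 genes and the pairs of SR genes most correlated. The 3 SR-related genes and the import receptor given without a call, the called progenitor and astrocyte markers, and the 3 lowest pair correlations were chosen outside this rule. Members and lists were chosen with earlier results of these data known.

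Ctr and Smg6-iKO libraries of embryos SMH_128, SMH_132 and SMH_133 came from the same animal. Their deviations from the group means correlated at r = 0.328, 0.399 and 0.425 across genes, against -0.265 to 0.095 for libraries of different embryos. Counting error and embryo variation are both in the SDs. No 2 libraries of a group held the same counts (chi-square per gene 11.04 to 43.02). The alternatives were DESeq2's size factors or upper-quartile normalization in edgeR, no filter, at least 10 counts in every library, all libraries in 1 fit, a loess correction for exon length (span 0.3), DESeq2 1.42.0, limma-voom (limma 3.58.1), the embryo block with and without the length correction, and leaving out single libraries. Nothing was deposited per transcript that was used here, so isoforms were not analysed here.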

Additional observations from a re-analysis of the deposited data

Results flagged for a closer look

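Of the 20 sets of 4 libraries examined (10 SR genes in Ctr + 4-OHT and in Smg6-iKO), 1 held a library far from the others, where chance alone flags about 1 in 20. For Srsf1, the Ctr + 4-OHT library SMH_126 was at 473.7 CPM, while the other libraries of its group reached up to 500.2 CPM. Its gap to the nearest of them was 0.916 of the range of the group. It lay within the range of the Ctr libraries for Srsf1 and above all Smg6-iKO libraries. Without it, no SR gene passed edgeR's test of the 2 groups against Ctr + 4-OHT, as with it.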

How the results depend on the processing

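The number of the 10 SR genes called was 0 against Ctr + 4-OHT except with all 11 libraries in 1 fit and with DESeq2 (1 each, Srsf1). Against Ctr it was 1 except with DESeq2 (2) and with the replicate block and exon length correction together (3). Leaving out a library gave 0 to 1 against Ctr. In all alternatives the controls gave 0. The paired fit with the replicate block changed no SR gene's call against Ctr, but raised the count of all genes from 1663 to 3854 (3714 with the length correction). The count of all genes against Ctr + 4-OHT (206) was 418 without a filter, 484 in 1 fit and 880 with DESeq2, and 66 to 174 leaving out a library. Against Ctr it was 2714 without a filter, 796 in 1 fit and 570 to 2524 leaving out a library. Between the controls (39) it was 198 without a filter, 60 in 1 fit, 168 with DESeq2 and 5 to 54 leaving out a library. The cause was not tested. Fold changes near 0 changed sign. Against Ctr + 4-OHT, Srsf11 was at -0.0015 in 1 fit, -0.013 with the length correction, -0.0048 with DESeq2 and -0.030 to 0.032 leaving out a library, Srsf2 at -0.011 to 0.089, Srsf4 at -0.022 to 0.11 and Tra2a at -0.015 to 0.12 leaving out a library. Against Ctr, Srsf4 was at -0.10 to 0.0066 leaving out a library. Between the controls, Srsf7 was at -0.00014 with DESeq2's size factors, -0.00095 with at least 10 counts, -0.00075 with limma-voom and -0.032 to 0.038 leaving out a library. All scalings moved the median of all genes by under 0.1. Counts over whole genes limit what can be seen of a poison exon.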
